A study of Mus musculus with 4 samples.

Results

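The 10 immediate early genes Fos, Fosb, Fosl2, Jun, Junb, Egr1, Nr4a1, Npas4, Arc and Ier2 are described here in single nuclei from the arcuate nucleus (ARC), a part of the mouse hypothalamus. They were chosen by gene symbol and are 10 of the 31053 genes counted. Nuclei came from punches of the ARC of wildtype male C57BL/6J mice, all 10 weeks old, that had either 3 weeks of DOCA-salt (a pellet of the mineralocorticoid deoxycorticosterone acetate under the skin and a saline drink beside water) or 3 weeks after a sham operation (Sham). Each treatment had 2 libraries, each made from a pool of 2 mice, so p-values between treatments measure the spread between pools. The mice were euthanized with CO2 and trunk blood was collected before the brains were frozen, and all groups share these steps.

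Immediate early genes are transcribed without new protein synthesis when a cell receives a stimulus, in neurons mostly calcium entry after synaptic activity. Kinases act on transcription factors that already sit at their promoters, such as CREB at cAMP response elements (CRE) and the serum response factor at CArG boxes. Most of the products are transcription factors themselves, and Fos in particular is used in the hypothalamus as a mark of recently active neurons. Their mRNA is short lived, so nuclei hold little of it at rest.

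Fos, Fosb and Fosl2 code for proteins that pair with those of Jun and Junb to form the AP-1 transcription factor. In the GRCm38 (mm10) build, GENCODE places Fos at chr12:85473890-85477273 on the plus strand, Fosb at chr7:19302696-19310051 on the minus strand and Fosl2 at chr5:32135801-32157842 on the plus strand. Jun lies at chr4:95049034-95052222 and Junb at chr8:84974484-84978718, both on the minus strand and both with a single exon. The antisense RNA gene Junos overlaps Jun and the antioxidant gene Prdx2 overlaps Junb, each on the opposite strand. The paper lists reads antisense to a gene as a class of their own. It does not state whether the counts left them out, so whether reads of these pairs were kept apart is not certain. Egr1 codes for a zinc finger factor. Nr4a1, an orphan nuclear receptor, is at chr15:101254269-101274795 on the plus strand and Npas4, a factor induced by calcium in neurons, at chr19:4984355-4990316 on the minus strand. Arc, which codes for a cytoskeletal protein of synapses that controls glutamate receptor uptake, is at chr15:74669083-74672570 and Ier2, a small nuclear protein gene, at chr8:84661331-84662852, both on the minus strand.

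The upstream sequence of the 3 members whose levels did not overlap between treatments (Jun, Junb and Nr4a1) is given here with that of Fos, whose levels did overlap. Each is the 250 bases before the RefSeq transcription start in GRCm38.p6, read 5′ to 3′ along the gene. Capitals mark matches on either strand to a CRE half-site (TGACG, or CGTCA on the other strand) or to an 8-letter CRE (TGACNTCA). RefSeq promoters were matched for 7 of the 10 members, without Egr1, Arc and Ier2.
Jun, chr4:95052223-95052472, minus strand: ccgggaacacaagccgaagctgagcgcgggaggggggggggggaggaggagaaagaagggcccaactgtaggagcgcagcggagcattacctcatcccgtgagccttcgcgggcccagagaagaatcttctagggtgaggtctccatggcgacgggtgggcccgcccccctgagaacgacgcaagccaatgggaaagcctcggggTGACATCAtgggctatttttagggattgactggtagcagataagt
Junb, chr8:84978749-84978998, minus strand: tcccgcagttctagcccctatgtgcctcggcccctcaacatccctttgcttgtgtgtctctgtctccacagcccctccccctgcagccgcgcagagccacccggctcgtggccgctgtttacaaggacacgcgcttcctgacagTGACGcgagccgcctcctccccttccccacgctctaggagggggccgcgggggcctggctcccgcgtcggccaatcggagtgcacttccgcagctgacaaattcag
Nr4a1, chr15:101266596-101266845, plus strand: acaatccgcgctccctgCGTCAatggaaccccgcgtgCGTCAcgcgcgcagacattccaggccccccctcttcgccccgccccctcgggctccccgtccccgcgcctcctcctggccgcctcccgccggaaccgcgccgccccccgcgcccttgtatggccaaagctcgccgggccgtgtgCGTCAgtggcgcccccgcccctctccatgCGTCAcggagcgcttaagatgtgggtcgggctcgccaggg
Fos, chr12:85473640-85473889, plus strand: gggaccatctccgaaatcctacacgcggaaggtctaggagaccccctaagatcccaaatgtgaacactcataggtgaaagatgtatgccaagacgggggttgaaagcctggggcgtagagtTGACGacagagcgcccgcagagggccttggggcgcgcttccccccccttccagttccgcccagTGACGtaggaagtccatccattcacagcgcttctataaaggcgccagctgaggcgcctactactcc

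Nr4a1 held 4 CRE half-sites in this window, which begin 233, 213, 69 and 40 bases before its start, and Fos held 2, Junb 1 and Jun none. Of all 32851 RefSeq promoters, 17.8% held at least 1 CRE half-site in the same window and 0.688% held 3 or more. Jun held 1 match to the 8-letter CRE (TGACATCA), 45 bases before its start, a form found in 7.49% of all promoters. Among the others with a promoter, Npas4 held 2 half-sites, Fosb 1 and Fosl2 none. No AP-1 site (TGANTCA) and no CArG box was found in any of the 7 windows, where 6.75% and 1.47% of all promoters held one. These letters in a window are a description and do not show that a factor binds there.

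After removal of barcodes outside the study's limits, 10307 and 18907 nuclei remained in the DOCA-salt libraries and 2203 and 7759 in the Sham libraries, with 21255137 to 69382757 UMIs (unique molecular identifiers, each a captured transcript) per library. The limits removed 4.25% and 4.29% of barcodes in DOCA-salt 1 and 2, and 21.5% and 6.80% in Sham 1 and 2. UMIs of Sham 1 fell from 53257230 to 21255137 by this step. The median nucleus kept held 2401 and 2534 UMIs after DOCA-salt but 8215 and 3278 in Sham. Barcodes shared by 2 libraries were 5 to 49 per pair. Nuclei were sorted into classes by marker genes that include no member, and the class names below stand for those gates. All 9 neuron markers were found in every glial and vascular gate, at a summed level of 1128 to 2673 CPM (UMIs of a gene scaled to the same total in each library) against 3802 to 4739 CPM in neurons. Free RNA, doublets and loosely gated nuclei were not told apart as its source. Whole libraries had the neuron markers at 3438 to 4363 CPM, a range that overlapped that of the neuron gate. The punches also differed in region within a treatment. Nuclei of the Agrp gate, the hunger neurons that define the ARC, numbered 286 and 8 in DOCA-salt 1 and 2 and 46 and 192 in Sham 1 and 2, whereas neurons with striatal markers numbered 329, 51, 1 and 13 and those with Hcrt, a peptide of the lateral hypothalamus, 0, 208, 8 and 1.

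All 10 members were detected in every library, with 399 (Fosb) to 7659 (Jun) UMIs over the 4 libraries. None passed the test between DOCA-salt and Sham over whole libraries, where 3 of 10 had groups that did not overlap. Jun was lower after DOCA-salt, and Junb and Nr4a1 were higher, in both libraries of the treatment than in either Sham library. Over all 16564 genes tested, 43% had groups that did not overlap, 26.6% with DOCA-salt above and 16.3% with it below, so 3 of 10 is not more than the share among all genes. edgeR called 0 genes (0%) at an adjusted p under 0.05, with 1399 genes at an unadjusted p under 0.05, and DESeq2 called 109 genes and no member. The median log2 fold change was -0.05 over the members and 0.03 over all genes.

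Jun codes for an AP-1 partner that can pair with the Fos proteins or with itself. Its level was 37.5 and 36.9 CPM in the DOCA-salt libraries and 77.5 and 51.9 CPM in the Sham libraries. Sham 1 stood highest, and the DOCA-salt libraries lay close together below both Sham libraries. The log2 fold change (DOCA-salt over Sham) was -0.84 ± 0.22 (SE, edgeR quasi-likelihood test, adjusted p = 0.572, n = 2 libraries per group). Thinned to 1000 UMIs per nucleus, the share of nuclei with a Jun UMI was 3.62% and 3.61% after DOCA-salt and 7.32% and 5.24% in Sham, where unthinned shares were 11.3%, 11.2%, 44.4% and 19.6%. Without a filter on low counts the adjusted p was 0.0346, and over all alternatives it ran from 0.0346 to 1.00. The share of all genes called without that filter is not given here. With 2 libraries per group the exact permutation test cannot go below p = 0.333, which these thinned shares gave. Depth per nucleus moved with Jun, being higher in both Sham libraries, as did the 3 hemoglobin markers of blood (92.3 to 163.7 CPM after DOCA-salt, 247 to 365.4 CPM in Sham), the 7 oligodendrocyte markers (157 to 466 against 536 to 600 CPM) and the 9 microglia markers (126 to 139 against 153 to 161 CPM), and their part in the result was not tested. Junos, which overlaps Jun, lay at 0.40, 0.69, 0.61 and 0.40 CPM (DOCA-salt 1 and 2, Sham 1 and 2).

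Junb, an AP-1 partner that often opposes Jun at target genes, stood at 20.5 and 18.2 CPM after DOCA-salt, above the Sham levels of 12.5 and 10.8 CPM. Every DOCA-salt library was above every Sham library, and the thinned share of nuclei had the same order, 1.78% and 1.72% against 1.22% and 1.04% (exact permutation p = 0.333). The log2 fold change was 0.69 ± 0.19 (SE, adjusted p = 0.572). Prdx2, on the other strand, was at 222 and 260 CPM after DOCA-salt and 185 and 201 CPM in Sham, so it differed in the same direction.

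Nr4a1 was at 8.81 and 10.7 CPM after DOCA-salt, where the Sham libraries had 6.49 and 5.84 CPM. Its groups were apart as well, with a log2 fold change of 0.62 ± 0.24 (SE, adjusted p = 0.577). Thinned shares were 0.863% and 1.08% after DOCA-salt and 0.618% and 0.599% in Sham (exact permutation p = 0.333).

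**Figure D1:**
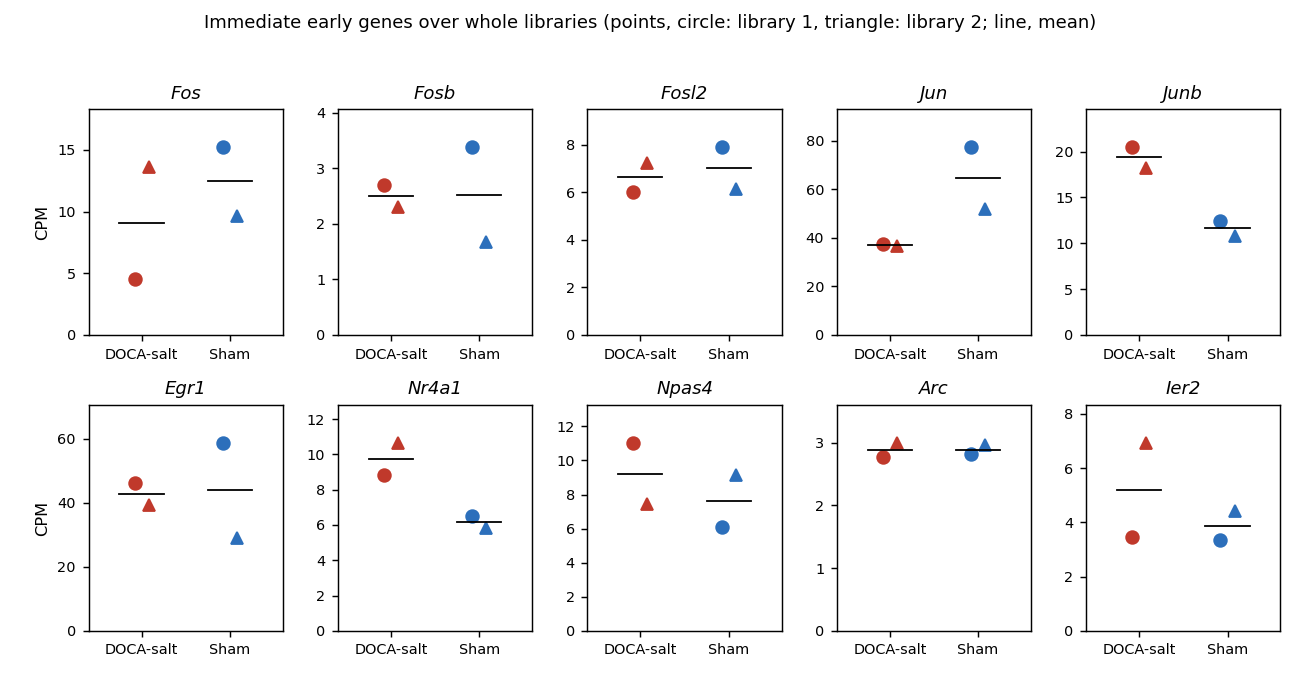
Level of each member (CPM, vertical axis from 0) over whole libraries, with 1 point per library and a line at the mean of the 2 libraries of a treatment. Points of Jun, Junb and Nr4a1 do not overlap between treatments (Jun 36.9 to 37.5 CPM against 51.9 to 77.5 CPM), and those of the other 7 members do.

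The other 7 members overlapped between treatments. Fos, the mark of recent activity, was at 4.51 and 13.6 CPM after DOCA-salt and 15.2 and 9.66 CPM in Sham. The DOCA-salt libraries differed from each other by more than the Sham libraries did, with DOCA-salt 1 lowest of all 4. The log2 fold change of -0.47 ± 0.54 (SE, adjusted p = 0.806) rests on that library: without DOCA-salt 1 it was 0.13, and without DOCA-salt 2 it was -1.54. Egr1 was at 46.1, 39.1, 58.7 and 29.1 CPM in DOCA-salt 1, DOCA-salt 2, Sham 1 and Sham 2, with both Sham libraries at the ends of the range. Npas4 was at 11.03, 7.42, 6.07 and 9.13 CPM in the same order, and the ranges of the treatments crossed. Fosl2 (6.01 to 7.90 CPM), Fosb (1.67 to 3.39 CPM), Ier2 (3.34 to 6.93 CPM) and Arc (2.78 to 3.00 CPM) overlapped as well, and Arc had the narrowest range of the 10 relative to its level.

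In neurons, 6811 and 13012 nuclei after DOCA-salt and 1790 and 5519 in Sham, the same 3 members were apart. Jun was at 36.1 and 34.2 CPM after DOCA-salt against 72.7 and 48.9 CPM in Sham (log2 fold change -0.83 ± 0.22, SE, adjusted p = 0.586). Junb was at 21.9 and 18.1 CPM against 12.1 and 11.1 CPM, and Nr4a1 at 8.71 and 10.0 CPM against 6.12 and 5.42 CPM. Their log2 fold changes were 0.75 ± 0.19 and 0.67 ± 0.25 (SE), with adjusted p = 0.586 and 0.593. Within the neuron gate, markers of other cells were also lower in both DOCA-salt libraries, those of blood at 63.3 to 68.8 CPM against 131 to 209 CPM, of oligodendrocytes at 72.1 to 335 against 346 to 477 CPM and of microglia at 71.5 to 71.6 against 93.5 to 101 CPM. Markers of oligodendrocyte precursors (169 to 198 against 206 to 218 CPM), mural cells (14.1 to 16.3 against 17.8 to 22.0 CPM) and perivascular macrophages (under 1 CPM in each library) had the same order, and the part of these in the results was not tested. edgeR called 0 of 16030 genes in neurons (0%), with 1337 at an unadjusted p under 0.05, DESeq2 called 98 and no member, and 43.8% of genes had groups that did not overlap (26.2% above, 17.6% below). In bulk sums like these, a change in the number of nuclei with a transcript and one in transcripts per nucleus cannot be told apart. The thinned shares of nuclei with a UMI were apart between treatments in the same direction as the levels for all 3 genes (Jun 3.36%, 3.35%, 6.71% and 4.70%). These shares come from the same UMIs as the levels, so they do not settle this and are no separate support.

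GABAergic neurons, gated by Slc32a1, Gad1 and Gad2, and glutamatergic neurons, gated by Slc17a6, Slc17a7 and Slc17a8, make the inhibitory and excitatory transmitters of the ARC, and Jun and Junb were apart between treatments in both. Jun was lower after DOCA-salt in both classes, at 37.0 and 35.2 CPM against 77.6 and 51.6 CPM in GABAergic nuclei and at 33.3 and 30.7 CPM against 64.9 and 44.3 CPM in glutamatergic nuclei. Junb was at 26.4 and 16.6 CPM against 11.8 and 9.54 CPM in GABAergic nuclei, and at 19.9 and 21.6 CPM against 12.2 and 15.1 CPM in glutamatergic nuclei. No library crossed to the other treatment's side for either gene in either class. Nr4a1 was apart in GABAergic nuclei (11.1 and 10.8 against 6.54 and 5.22 CPM) and overlapped in glutamatergic nuclei (5.28 and 9.01 against 5.13 and 5.84 CPM). Glutamatergic nuclei also had Fos, Fosl2 and Egr1 below Sham in both DOCA-salt libraries. Fos was at 2.92 and 10.5 CPM against 11.1 and 11.0 CPM, with DOCA-salt 1 far below and DOCA-salt 2 close to Sham, and Egr1 was at 30.7 and 45.4 CPM against 57.1 and 50.1 CPM. Egr1 in GABAergic nuclei ran instead from 20.4 CPM in Sham 2 to 66.4 CPM in DOCA-salt 1, and whether its difference between treatments is unlike in the 2 classes was not tested. Groups did not overlap for 4 of 10 members in GABAergic nuclei, where Ier2 was the fourth, and for 5 of 10 in glutamatergic nuclei, beside 41.1% and 45.1% of all genes tested. In GABAergic nuclei 24.2% of genes lay above Sham and 16.9% below, and in glutamatergic nuclei 26.6% above and 18.5% below. No member and 0 genes (0%) passed edgeR in either class, with 1041 and 1384 genes at an unadjusted p under 0.05, and DESeq2 called 54 and 55 genes and no member. Which members pass edgeR rests on single libraries: it changed in both classes without DOCA-salt 1 and without DOCA-salt 2. The lone DOCA-salt library left was then assumed to vary like the others. The share of all genes called in those fits is not given here, so their calls are not counted.

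Neurons with striatal markers in DOCA-salt 1 held 5.04% of the UMIs of its neurons but 23.6% of the Egr1 UMIs, 23.1% of the Arc UMIs, 16.6% of the Junb UMIs and 14.7% of the Nr4a1 UMIs. Their levels were 233 CPM for Egr1, 72.0 CPM for Junb, 25.4 CPM for Nr4a1, 20.6 CPM for Npas4 and 12.3 CPM for Arc. Jun was low in them, at 13.03 CPM. Without the nuclei of the striatal, Pmch and Hcrt gates, neurons had Junb at 19.2 and 18.2 CPM after DOCA-salt against 12.1 and 11.1 CPM in Sham, Nr4a1 at 7.71 and 10.2 CPM against 6.15 and 5.38 CPM, and Jun at 37.5 and 34.5 CPM against 72.5 and 48.8 CPM. All 3 remained apart between treatments, with log2 fold changes of 0.65, 0.60 and -0.80. Kinds that were left in also differed between libraries, such as Agrp with 286 and 8 nuclei in DOCA-salt 1 and 2. The part of these in the result was not tested.

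Among the 8 kinds of neuron with at least 10 nuclei in each library (Pomc, Tac2, Ghrh, Sst, dopaminergic, Pmch, magnocellular-type and ventromedial), Jun was below Sham in both DOCA-salt libraries in 6. It overlapped in Tac2 and magnocellular-type neurons. In any single kind 14.9% to 18.6% of all genes with 20 or more UMIs lay below Sham in the same way. The share of genes that did so in 6 of the 8 kinds was not computed. The kinds share their libraries, so they do not count as repeats. Pomc neurons, which release melanocortin and lower food intake, had Jun at 61.2 and 34.6 CPM after DOCA-salt and 109 and 69.8 CPM in Sham. Junb was above Sham in 6 of the 8 kinds, overlapped in Sst neurons and was below Sham in Pomc neurons. In any single kind 17.3% to 23% of all genes lay above Sham, and the share that did so in 6 of the 8 was not computed either. Magnocellular-type neurons (Avp and Oxt, the hormones of the posterior pituitary) had Junb at 22.8 and 24.8 CPM after DOCA-salt and 3.58 and 5.56 CPM in Sham. These values rest on 3, 31, 1 and 3 UMIs (DOCA-salt 1 and 2, Sham 1 and 2). In the same neurons of DOCA-salt 2, Fosl2 reached 36.7 CPM and Ier2 and Nr4a1 19.97 CPM each, where neurons of that library as a whole had 7.35, 5.34 and 10.0 CPM. Fosl2, Ier2 and Nr4a1 overlapped between treatments in magnocellular-type neurons, with 62, 34 and 33 UMIs over all libraries. Agrp neurons, with under 10 nuclei in DOCA-salt 2, had Jun at 72.9 CPM in DOCA-salt 1, where Sham 1 had 95.99 CPM and Sham 2 had 67.2 CPM.

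**Figure D2:**
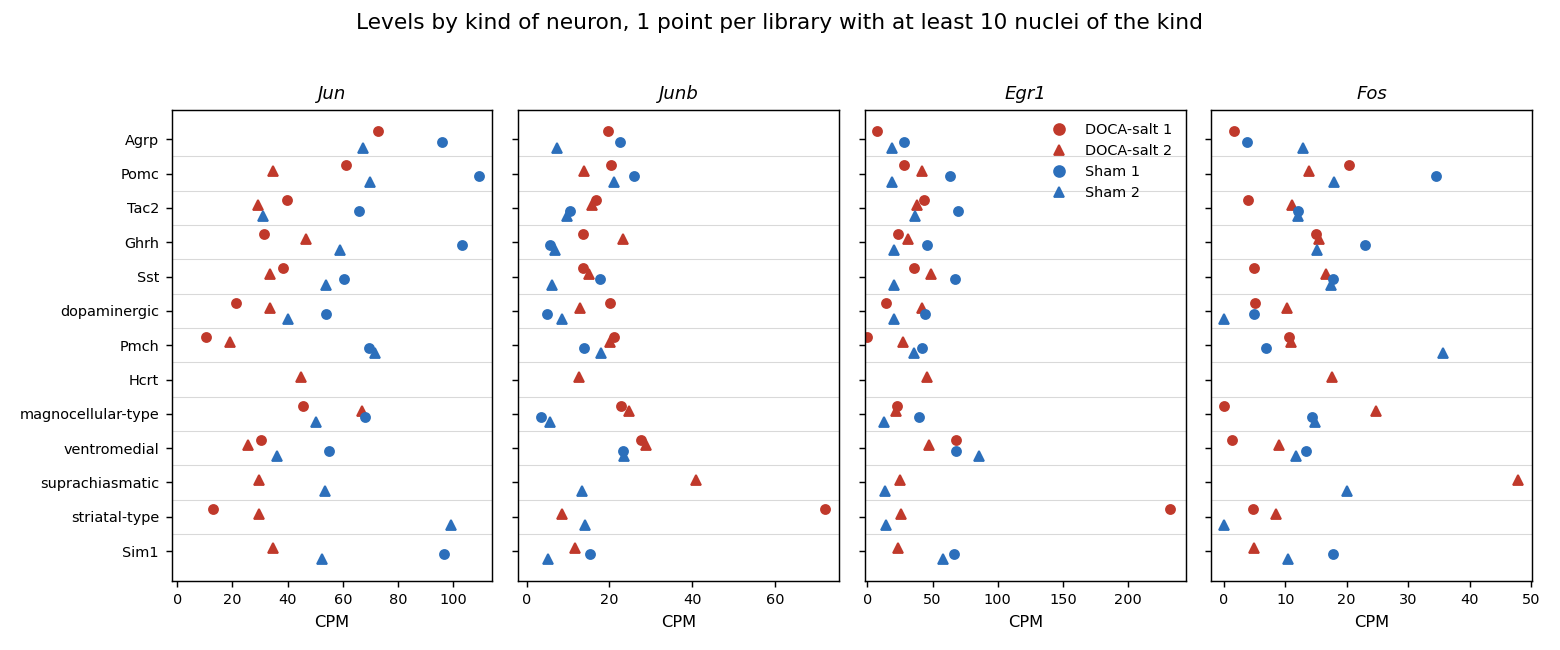
Levels of Jun, Junb, Egr1 and Fos (CPM, horizontal axes) in 13 kinds of neuron, with 1 point per library that had at least 10 nuclei of the kind (red, DOCA-salt; blue, Sham). Jun points of DOCA-salt lie left of both Sham points in 6 of the 8 kinds with all 4 libraries, and striatal-type neurons of DOCA-salt 1 stand alone at 233 CPM for Egr1 and 72.0 CPM for Junb.

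In neurons with markers of the suprachiasmatic nucleus (Vip, Lhx1 and Prok2), the circadian clock, Fos was at 47.8 CPM in DOCA-salt 2, 45.8 CPM in Sham 1 and 20.1 CPM in Sham 2. These values rest on 43, 9 and 15 nuclei with 21, 6 and 3 Fos UMIs, and DOCA-salt 1 had no such nucleus. Ventromedial neurons had Egr1 at 67.8 and 47.4 CPM after DOCA-salt, where the Sham libraries had 68.3 and 85.9 CPM, so both DOCA-salt libraries were below Sham, DOCA-salt 1 only just.

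In each library, neurons with a Fos UMI held Nr4a1 and Egr1 more often than neurons without one, after thinning to 1000 UMIs. Of nuclei with Fos after DOCA-salt, 8.11% (library 1) and 7.73% (library 2) held Nr4a1, compared with 0.811% and 0.897% of nuclei lacking Fos. For Sham these shares were 1.04% and 2.70% with Fos, compared with 0.541% and 0.543% lacking it. Egr1 was in 11.5% and 12.6% of nuclei with Fos after DOCA-salt, compared with 4.34% and 3.49% lacking it. For Sham, Egr1 was in 8.03% and 8.70% with Fos, compared with 5.31% and 2.69% lacking it. The shares of Jun lay closer together, at 4.19% of nuclei with Fos and 3.34% of those without it in DOCA-salt 2, and at 7.66% and 6.69% in Sham 1. Thinned nuclei with Fos numbered about 29.2, 164, 23.3 and 47.2 in the 4 libraries, a sum of probabilities, so the shares rest on few UMIs. These are descriptions over nuclei of 1 library each, and no test was made of them.

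Several members differed between classes of nuclei. Each of the 5 glial and vascular classes with at least 10 nuclei in every library (astrocytes, oligodendrocytes, oligodendrocyte precursors, microglia and endothelial cells) was compared with neurons of the same libraries, with the library as a block. The SE and p-values of this test come from the edgeR fit and do not measure how far a difference spread between the 4 libraries. Members passed this test in 16 of 50 comparisons. The count was 4 of 10 against astrocytes, where 41.8% of all genes tested were called, 6 against oligodendrocytes (33.1%), 4 against oligodendrocyte precursors (22.6%), none against microglia (11.6%) and 2 against endothelial cells (30.7%). Higher in neurons were 3 members against astrocytes (22.1% of genes), 4 against oligodendrocytes (17.9%) and 1 against precursors (12.6%), and lower in neurons were 1 (19.7%), 2 (15.2%) and 3 (9.99%). Against endothelial cells both were lower in neurons (15.3% of genes higher, 15.4% lower), and against microglia 5.3% of genes were higher and 6.28% lower, with 1 member, Egr1, at an unadjusted p under 0.05 by edgeR (adjusted p = 0.187) and none called by DESeq2. Because neuron markers are in every gate, a level in glia can hold transcripts of neurons, and this was not corrected.

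The members called higher in neurons than in at least 1 other class were Egr1, Npas4, Junb and Fosb. In the fits between treatments, none of these passed the filter on low counts in astrocytes or oligodendrocytes, nor did Npas4 in precursors. They thus entered the comparison with these classes through neurons, where they are high. Their calls, counted above, describe levels and are no separate support. Egr1 was at 49.7, 40.7, 59.7 and 31.3 CPM in neurons (DOCA-salt 1 and 2, Sham 1 and 2) and at 11.4, 17.5, 35.1 and 10.1 CPM in oligodendrocytes, lower in each library. It was higher in neurons than in oligodendrocytes by 1.21 ± 0.23 and than in astrocytes by 1.30 ± 0.22 on the log2 scale (SE, edgeR, adjusted p = 1.76e-05 and 3.05e-06). Npas4, which is known from neurons, had 1207 UMIs in them and 8, 5 and 3 in astrocytes, oligodendrocytes and precursors. Its log2 fold change was 1.86 ± 0.57 against oligodendrocytes (adjusted p = 0.00785). Npas4 was in 0.674% to 1.23% of neurons and in 0% to 0.452% of oligodendrocytes after thinning, with median depths of 3011 to 8911 UMIs in neurons and 989 to 4991 UMIs in oligodendrocytes before it. Junb was higher in neurons than in astrocytes and oligodendrocytes (1.12 ± 0.37 and 0.93 ± 0.36, adjusted p = 0.0121 and 0.0386). Of 11 alternatives, the call of Junb was lost under 4 against astrocytes and 6 against oligodendrocytes. That of Npas4 was lost under 5 against astrocytes, 2 against oligodendrocytes and 7 against precursors. Fosb had no UMI in oligodendrocytes of any library, and 322 in neurons. Against a floor of 3 counts over all oligodendrocytes, its level in neurons was at least 1.82-fold higher. The call of Fosb was also lost, under 5 of 10 alternatives.

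Arc, a synaptic gene by its best known role, was highest in oligodendrocytes. Its level there was 17.2 and 19.7 CPM after DOCA-salt and 21.9 and 16.5 CPM in Sham, against 2.70, 2.70, 2.70 and 2.48 CPM in neurons. Each library had more in oligodendrocytes, from 6, 18, 5 and 13 UMIs there, and no other class had a level range that touched that of oligodendrocytes. The log2 fold change of neurons against oligodendrocytes was -2.98 ± 0.38 (SE, adjusted p = 3.61e-09). After thinning, Arc was in 0.868%, 1.79%, 2.39% and 2.26% of oligodendrocytes and in 0.235% to 0.246% of neurons. All 7 oligodendrocyte markers were found in the gate, at 4735 to 6727 CPM, and the 9 neuron markers at 1360 to 2134 CPM.

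Nr4a1 was highest in oligodendrocyte precursors, the cells that give rise to oligodendrocytes, and its range over libraries there lay above that of every other class tested. It was at 29.6 and 41.9 CPM after DOCA-salt and 26.8 and 38.4 CPM in Sham, from 46 UMIs, where neurons had 5.42 to 10.0 CPM. The log2 fold change of neurons against precursors was -2.13 ± 0.32 (SE, adjusted p = 9.15e-10). The treatments overlapped in precursors, unlike in neurons, and whether the treatment differed between these classes was not tested for Nr4a1.

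Ier2 was highest in endothelial cells, which line the vessels, at 48.7 and 58.1 CPM after DOCA-salt and 27.4 and 78.4 CPM in Sham. The lowest of these values was above the highest in any other class tested, 14.5 CPM in astrocytes of DOCA-salt 2. The endothelial gate also held the 8 mural markers at 576 to 1195 CPM, where whole libraries had 34.6 to 52.3 CPM, and the blood markers at 1421 to 7416 CPM. Rgs5 and Vtn, known from pericytes, were among its 10 leading genes, and the part of these cells in the level of Ier2 was not tested. Neurons stood 3.96 ± 0.34 lower on the log2 scale (SE, adjusted p = 3.08e-30). After thinning, Ier2 was in 6.13%, 5.36%, 2.48% and 6.25% of endothelial nuclei and in 0.237% to 0.549% of neurons. Both Sham libraries lay at the ends of the endothelial range, so no order of the treatments can be read from it.

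Jun had means of 113 ± 82.0 CPM in endothelial cells, 111 ± 44.2 CPM in oligodendrocyte precursors, 84.6 ± 20.8 CPM in oligodendrocytes, 60.3 ± 48.5 CPM in microglia and 48.8 ± 7.91 CPM in astrocytes (SD, n = 4 libraries, both treatments). Neurons had 48.0 ± 17.8 CPM. Neighbours in this order overlapped in range. With the library as a block, neurons were lower than endothelial cells by 1.30 ± 0.16, than precursors by 1.13 ± 0.16 and than oligodendrocytes by 1.00 ± 0.14 on the log2 scale (SE, edgeR, adjusted p = 1.19e-15, 9.95e-11 and 4.05e-08). In DOCA-salt 1 neurons were not lower than endothelial cells, which had 35.4 CPM there. The SE and adjusted p are those of the edgeR fit and do not measure how far these differences spread between the 4 libraries. Fos did not pass the test against any of the 5 classes, with means of 7.06 to 13.4 CPM in all 6 classes and standard deviations of 4.28 to 12.9 CPM.

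**Figure D3:**
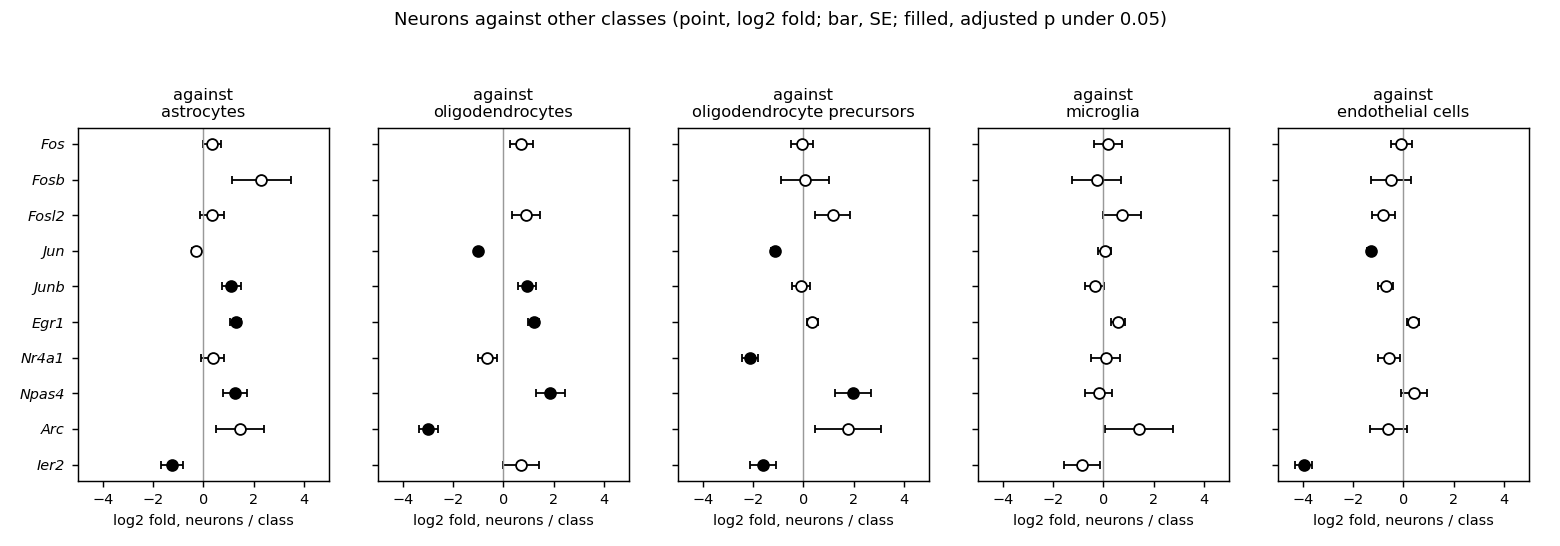
Log2 fold change (neurons over the class named on each panel, horizontal axis) of each member, with its standard error as a bar and members at an adjusted p under 0.05 filled. Arc lies at -2.98 against oligodendrocytes, Nr4a1 at -2.13 against oligodendrocyte precursors and Ier2 at -3.96 against endothelial cells, and Fosb is left out of the oligodendrocyte panel because it had no UMI there.

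Between treatments, the same order of Jun as in neurons was seen in astrocytes, oligodendrocyte precursors and microglia, where both DOCA-salt libraries were below both Sham libraries. The share of all genes below Sham in this way was 18.7% in astrocytes, 13.9% in oligodendrocytes, 17.6% in precursors, 17.4% in microglia and 17.3% in endothelial cells. The share above Sham was 19.2%, 23.7%, 20.2%, 20.1% and 20.7% in the same order, which makes 37.9%, 37.6%, 37.8%, 37.5% and 38% in either direction. The fold change was largest in microglia, with 34.3 and 20.9 CPM after DOCA-salt against 130 and 56.5 CPM in Sham, from 40 UMIs in all. The 130 CPM of Sham 1 rests on 11 nuclei with 61740 UMIs of all genes. Oligodendrocytes had Jun at 82.9 and 65.7 CPM against 114 and 76.0 CPM, and endothelial cells at 35.4 and 103 CPM against 228 and 86.2 CPM, with overlap in both. The log2 fold changes of Jun were -0.39 ± 0.34 in astrocytes, -0.40 ± 0.33 in oligodendrocytes, -0.86 ± 0.33 in precursors, -1.47 ± 0.55 in microglia and -1.01 ± 0.44 in endothelial cells (SE). Of the 10 members 1, 2, 3, 1 and 2 passed the filter on low counts in these classes. Among those, only Jun was below Sham in both DOCA-salt libraries, in the 3 classes named above. Only Egr1 was above, in precursors, with 45 UMIs in all (log2 fold change 1.01 ± 0.56, SE, edgeR, adjusted p = 0.746). No member tested passed the test with all libraries, where edgeR called 0.0344%, 0.176%, 0.0301%, 0.0471% and 0.106% of the genes tested. Without DOCA-salt 2 the log2 fold change of Jun in endothelial cells was -2.17. The fold change of Jun in neurons minus that in astrocytes was -0.33 ± 0.31, and minus that in oligodendrocytes -0.37 ± 0.28 (SE, log2). Neither these nor any other member passed the test of the difference, which called 0.399% and 0.246% of genes.

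**Figure D4:**
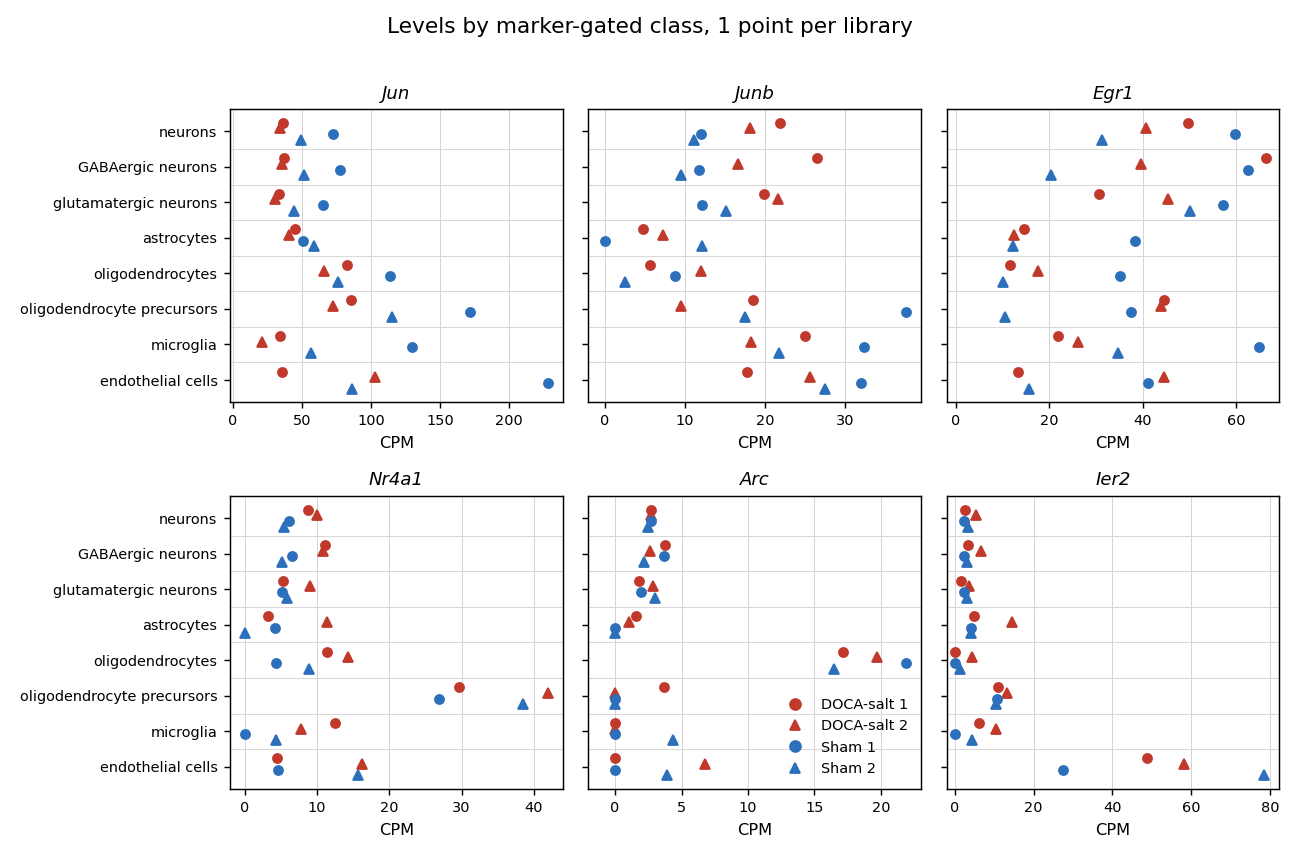
Levels of 6 members (CPM, horizontal axes) in neurons, their GABAergic and glutamatergic subsets and the 5 glial and vascular classes tested, with 1 point per library (red, DOCA-salt; blue, Sham; circle, library 1; triangle, library 2). Arc stands out in oligodendrocytes (16.5 to 21.9 CPM), Nr4a1 in oligodendrocyte precursors (26.8 to 41.9 CPM) and Ier2 in endothelial cells (27.4 to 78.4 CPM), with the treatments overlapping in each.

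Other genes of the activity-regulated programme were counted in 5 lists over whole libraries, and none passed the test. Fold changes were above 0 for 12 of 17 other rapid transcription factors tested, 9 of 21 feedback regulators, 11 of 16 neuronal effectors, 9 of 17 regulators upstream and 1 of 8 heat shock genes. The median log2 fold changes were 0.15, -0.05, 0.11, 0.02 and -0.26, beside the medians of members and of all genes given above. The gene with the lowest p in any list was Gadd45g, which acts in DNA repair and demethylation, with 50.6 and 51.4 CPM after DOCA-salt and 32.5 and 33.3 CPM in Sham (log2 fold change 0.59, adjusted p = 0.572). Per1, a clock gene that CREB also induces, was at 50.9 and 45.5 CPM against 35.9 and 36.5 CPM, and Plk2, a kinase of synapses, at 38.0 and 30.1 CPM against 24.04 and 17.9 CPM. Scg2, a granin of secretory vesicles, was at 645 and 609 CPM against 911 and 874 CPM, and Bdnf, a growth factor for synapses, at 30.2 and 25.1 CPM against 45.8 and 33.1 CPM. Klf4 was lower after DOCA-salt as Jun was, with 3.31 and 3.42 CPM against 7.53 and 5.59 CPM. Groups did not overlap for any of these 6 genes, beside 43% of all genes. They were picked from genes with a low p, a choice that favours genes that lie apart, so this is no support. Egr3, a relative of Egr1, stood at 16.8 CPM in DOCA-salt 1 and at 2.38 to 2.82 CPM in the other libraries, so its log2 fold change of 1.75 rests on DOCA-salt 1. That library also had the most striatal-type neurons, and their part in the level of Egr3 was not tested. Among heat shock genes, Hsp90aa1 was at 1413 and 1557 CPM against 2115 and 1973 CPM. Of the upstream regulators, Elk3 was at 3.93 and 4.11 CPM against 6.07 and 6.58 CPM and Crtc2, a coactivator of CREB, at 23.0 and 20.1 CPM against 16.3 and 13.03 CPM.

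The genes whose pattern was most like that of the 3 members with the most UMIs were found by Pearson's r of log2 CPM over 24 sums (6 classes in 4 libraries), among 10684 genes. For Jun they were Ccdc59 (r = 0.76), Snx9, Aplp2, Tanc1 and B230219D22Rik. For Egr1 they were Dnm1 (r = 0.80), which codes for the dynamin of synaptic vesicle recycling, Cntnap1, Sacm1l, Syngr3, a synaptic vesicle protein, and Skp1a. For Junb they were Ccdc177 (r = 0.80), Itga3, Skil, Pum2 and Asap3. The sums share libraries and differ in depth, so these values are descriptions.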

How the data were processed

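Single-nucleus libraries (10x 3′ v3) were made from pooled ARC punches, 2 libraries per treatment. The authors deposited raw UMI counts per gene and barcode, made with Cell Ranger 3.0.1 on mm10. The paper lists intronic reads and antisense reads as shares of their own and does not state whether the counts left them out. Barcodes were kept at 200 to 7000 genes, under 25000 UMIs and under 15% mitochondrial UMIs. Nuclei were sorted into classes by marker genes (at least 3 UMIs of at least 2 markers). A glial or vascular gate asked for at least 5 times the level of its markers in the library. The neuron gate asked for at least 0.5 times that of its own markers and took no nucleus that passed a glial or vascular gate. The gate limits were set after the data were seen, and the members and lists were chosen with earlier results of these data known. No doublet caller was run. Nuclei with markers of several classes were left out, and the nuclei of most UMIs were removed in an alternative. Counts were summed per library and class and tested with edgeR 4.0.16 (R 4.3.3, TMM, filterByExpr, quasi-likelihood) over all genes, with Benjamini-Hochberg adjustment at 0.05 and DESeq2 1.42.0 as an alternative. Classes with under 10 nuclei in a library were not tested. SE is the absolute log2 fold change over the square root of F. Detection shares were computed for nuclei of at least 1000 UMIs, each thinned to 1000 UMIs. Intervals and floors (3 counts) cover counting error only. Depth limits the rarer members most: 1 UMI is worth more CPM in small classes.

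All 10 members were named. Of each of the 5 lists the genes named were among the 4 with the lowest p over whole libraries, and for the 3 members with most UMIs the 5 most alike genes. In data simulated from whole libraries (16564 genes), edgeR recovered 33% of genes changed by 1 and 80% of those changed by 2 on the log2 scale, and 26% and 71% in neurons (16030 genes). Alternatives were another size factor, no filter on low counts, leaving out each library, all barcodes, stricter gates, thinned sums, other thinning depths and a replicate block. A crossed block was added after the data were seen. Positions are from GENCODE vM21 and promoters from RefSeq.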

Additional observations from a re-analysis of the deposited data

How the results depend on the processing

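No member was called between treatments under size factors of the RLE kind, DESeq2, all barcodes, thinned sums or the removal of nuclei of most UMIs. Without a filter on low counts, 1 member (Jun) was called in whole libraries, 1 in neurons and 1 in glutamatergic neurons. The share of all genes called without the filter is not given here, so these calls do not set the members apart from other genes. Leaving out 1 library gave 0 to 1 called members in whole libraries, 0 to 1 in neurons, 0 to 4 in GABAergic neurons, 0 to 3 in glutamatergic neurons and 0 to 1 in the glial and vascular classes. All of these calls came without a DOCA-salt library (Fos in whole libraries without DOCA-salt 2, and in neurons Jun without DOCA-salt 1 and Fos without DOCA-salt 2), and the lone library left was then assumed to vary like the others. In GABAergic neurons they were Jun and Ier2 without DOCA-salt 1, and Fos, Jun, Junb and Egr1 without DOCA-salt 2. The log2 fold change of Fos ran from -1.54 (without DOCA-salt 2) to 0.13 (without DOCA-salt 1) in whole libraries and from -1.43 to 0.25 in neurons. With 1 library left out at a time, the log2 fold change of Jun in whole libraries ran from -1.14 to -0.50. That of Junb ran from 0.55 to 0.82 and that of Nr4a1 from 0.43 to 0.79.

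Of the 16 calls of members between neurons and another class, 9 were made by DESeq2 and 10 (without DOCA-salt 2) to 15 when 1 library was left out. With thinned sums 3 were made (Jun in oligodendrocytes, precursors and endothelial cells). The other members called did not pass the filter on low counts with thinned sums. They were not tested there, so their calls were neither kept nor lost by thinning. Of all genes, DESeq2 called 4560, 3397, 1878, 786 and 2979 against astrocytes, oligodendrocytes, precursors, microglia and endothelial cells. edgeR called 5898, 4679, 3156, 1618 and 4371. Such totals are not given here for thinned sums or with 1 library left out. The calls of Egr1 against astrocytes and oligodendrocytes, Arc, Nr4a1 and Ier2 against the class where each was highest, and Jun against 3 classes held wherever the gene was tested. Among these only Jun was tested with thinned sums. Egr1 entered its comparisons through neurons, where it is high, so its calls describe levels and are no separate support.

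Same-numbered libraries deviated from their group means with r = -0.223 over 16564 genes, and the labels give the numbers no shared origin. With the replicate block, 0 members were called, and 0 genes in whole libraries. With the pairing crossed, chosen after the data were seen, 58 genes and 0 members were called in whole libraries.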
